A study of Mus musculus with 18 samples.

Results

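The genes described here are 10 markers of the enteroendocrine cells of the gut: *Chga*, *Chgb*, *Gcg*, *Pyy*, *Insl5*, *Tph1*, *Sst*, *Cck*, *Nts* and *Neurod1*. They were taken as a list of symbols, with no measured value in the rule, and all 10 were found among the 47729 genes of the count table. These genes and the marker lists below were nevertheless chosen with earlier results of these data known. Enteroendocrine cells are scattered hormone-secreting cells of the intestinal epithelium that arise in the crypts from secretory progenitors, under transcription factors that include *Neurog3* and *Neurod1*. In the colon they are mostly L cells, which release glucagon-like peptides, peptide YY and insulin-like peptide, enterochromaffin cells, which make serotonin, and D cells, which release somatostatin. Enteric neurons also use somatostatin, neurotensin, cholecystokinin and the granins, so RNA of the whole colon can hold these messages from more than the epithelium.

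The study sequenced RNA of the mouse colon in 9 libraries, 3 in each of 3 groups. Control WT mice (libraries 1 to 3) carried no transgene and had Control as their treatment label. The text on the AOM/DSS protocol stands under these samples too, so that they were untreated rests on the treatment label, and every comparison with Control WT depends on it. AOM-DSS WT mice (libraries 4 to 6) were put through the AOM/DSS model of colitis-associated cancer (CAC), in which azoxymethane at 10 mg/kg, given as a single injection, was followed by 3 cycles of 2.5% dextran sulfate sodium. AOM-DSS Claudin-2TG mice (libraries 7 to 9) were put through the same model and carried a transgene that expresses claudin-2 (*Cldn2*) from the Villin promoter, which is active in intestinal epithelium. All were on a C57BL/6 background. The study states that WT mice were littermates matched for age and sex, and no age was given in its labels or methods. The comparison of AOM-DSS WT with Control WT asks what the model does to these genes in WT colon, that of Claudin-2TG with AOM-DSS WT asks what the transgene adds within the model, and that of Claudin-2TG with Control WT measures both changes together. The 3 comparisons share libraries and are not independent. The tests measure spread between these libraries, which the study describes as mice.

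Summed over its 2 sequencing lanes, each library held 14142711 to 22262546 counts assigned to genes. Totals were 19598540, 19973030 and 22103851 in Control WT, 19143664, 22262546 and 14142711 in AOM-DSS WT, and 14900807, 20555392 and 14871987 in Claudin-2TG. Levels are given as CPM, the counts scaled to a common library total, after TMM scaling over the 9 libraries. A gene with 3 counts, the floor used for detection, stood at 0.130 to 0.222 CPM, and this floor covers counting error only. The lanes of a library differed about as much as counting error allows (chi-square divided by its degrees of freedom, 0.995 to 1.06).

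Libraries departed from their labels or from their group in 2 respects. Control WT library 1 held *Xist*, the RNA of the inactive X chromosome, at 214 CPM and each of 4 Y-linked genes at 0.199 CPM or less, whereas the other 8 libraries held *Xist* at 0.203 CPM or less and the Y-linked genes at 20.2 CPM or more. The groups were therefore not matched for sex in RNA, and for the 10 genes values without library 1 are given below where it changed a call. AOM-DSS WT library 4 stood apart from libraries 5 and 6, where the same statistic between libraries was 66.3 and 65.3, against 31.9 between libraries 5 and 6, 16.8 to 21.7 within Control WT and 19.9 to 25.1 within Claudin-2TG. Values without library 4 are given for the 10 genes in the same way. For other named genes mostly the largest adjusted p over the fits without a library is given, and many calls in the counts of the marker lists were also lost without library 1, with no value printed for them.

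The transgene was checked by the level of *Cldn2* RNA, which counts the mouse's own gene and the transgene together. *Cldn2* stood at 191, 259 and 245 CPM in Control WT, at 119, 137 and 132 in AOM-DSS WT, and at 208, 218 and 251 in Claudin-2TG. All Claudin-2TG libraries thus lay above all AOM-DSS WT libraries and within the Control WT range. The log2 fold change was 0.78 (SE 0.12, edgeR adjusted p 0.0103) against AOM-DSS WT and -0.03 (SE 0.12, adjusted p 0.897) against Control WT. For AOM-DSS WT against Control WT it was -0.82 (SE 0.14, adjusted p 0.0138), a called fall, so the rise in Claudin-2TG was measured against a reference group that was itself below Control WT. RNA of the transgene was not told apart from that of the mouse's own gene.

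The tissue label was checked against 20 general epithelial genes and the enteroendocrine genes themselves. The epithelial genes summed to 27132, 29162 and 28754 CPM in Control WT, to 33075, 29845 and 26318 in AOM-DSS WT and to 29671, 33522 and 35224 in Claudin-2TG, with *Lgals4* the most abundant at a mean of 6799 CPM. The 10 enteroendocrine genes summed to 623, 627 and 606 CPM in Control WT, to 672, 508 and 364 in AOM-DSS WT and to 585, 771 and 904 in Claudin-2TG, and *Pyy* made up 28.7% of the mean sum. Group means of the enteroendocrine sum were 619 ± 11.4, 515 ± 154 and 753 ± 160 CPM (SD, n = 3 each), so that the Control WT libraries lay close together while both AOM/DSS groups were spread widely. Libraries 6 and 4 marked the ends of the AOM-DSS WT range for this sum, and libraries 7 and 9 the ends of the Claudin-2TG range.

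The genes lie on 8 chromosomes, and positions are in the GRCm38 build. *Chga* (ENSMUSG00000021194, chr12:102554969-102565027) and *Chgb* (ENSMUSG00000027350, chr2:132781278-132795079) are on the plus strand, and the others are on the minus strand. These are *Gcg* (ENSMUSG00000000394, chr2:62474530-62483650), *Pyy* (ENSMUSG00000017311, chr11:102106676-102107832), *Insl5* (ENSMUSG00000066090, chr4:103017872-103026842), *Tph1* (ENSMUSG00000040046, chr7:46647130-46672537), *Sst* (ENSMUSG00000004366, chr16:23889581-23890844), *Cck* (ENSMUSG00000032532, chr9:121489825-121495689), *Nts* (ENSMUSG00000019890, chr10:102481760-102490418) and *Neurod1* (ENSMUSG00000034701, chr2:79452521-79456751). *Neurod1* was the sole member whose exons overlapped those of other genes in the table, *Cerkl* on the same strand, with 29 counts in all libraries together, and *Gm26755* on the opposite strand, with 0.

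*Chga* and *Chgb* encode chromogranin A and chromogranin B, acidic proteins that pack the secretory granules of enteroendocrine cells. *Chga* stood at 84.6, 91.7 and 84.6 CPM in Control WT libraries 1 to 3, at 128, 113 and 64.5 CPM in AOM-DSS WT libraries 4 to 6, and at 92.0, 132 and 162 CPM in Claudin-2TG libraries 7 to 9. The Control WT libraries were nearly level, AOM-DSS WT reached both above and below them, and all Claudin-2TG libraries were above them, library 7 by less than 1 CPM. *Chgb* followed at 134, 148 and 144 CPM in Control WT, at 182, 161 and 87.2 CPM in AOM-DSS WT and at 142, 163 and 220 CPM in Claudin-2TG. For both granins AOM-DSS WT library 6 was the lowest of all 9 libraries and Claudin-2TG library 9 the highest, and the groups overlapped for *Chgb* in every comparison.

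*Gcg* encodes proglucagon, the precursor that L cells process to glucagon-like peptides. Its level was 32.6, 37.6 and 59.2 CPM in Control WT, 29.9, 34.1 and 25.8 CPM in AOM-DSS WT and 43.7, 63.1 and 96.3 CPM in Claudin-2TG. Every Claudin-2TG library was above every AOM-DSS WT library, and Control WT overlapped both, with its library 3 standing above 1 Claudin-2TG library. *Pyy* encodes peptide YY, which slows gut transit and lowers appetite. *Pyy* stood at 181, 166 and 155 CPM in Control WT, at 220, 135 and 127 CPM in AOM-DSS WT and at 184, 251 and 203 CPM in Claudin-2TG. AOM-DSS WT library 4 was above all Control WT libraries and libraries 5 and 6 below them, while the Claudin-2TG libraries were all above Control WT, library 7 narrowly.

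*Insl5* encodes insulin-like peptide 5, a hormone of L cells of the distal gut. *Insl5* stood at 165, 161 and 137 CPM in Control WT, at 82.0, 43.2 and 43.3 CPM in AOM-DSS WT and at 106, 142 and 188 CPM in Claudin-2TG. All AOM-DSS WT libraries were below all others, library 4 above libraries 5 and 6, and the Claudin-2TG libraries reached to both sides of Control WT. *Tph1* encodes tryptophan hydroxylase, the first enzyme of serotonin synthesis in enterochromaffin cells. Its level was 7.51, 9.24 and 8.73 CPM in Control WT, 15.1, 12.3 and 6.70 CPM in AOM-DSS WT and 9.64, 10.9 and 22.0 CPM in Claudin-2TG. AOM-DSS WT straddled Control WT, and all Claudin-2TG libraries were above Control WT, library 9 far above the other 2.

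*Sst* encodes somatostatin, which D cells release and which restrains the secretion of other gut hormones. *Sst* stood at 14.7, 10.2 and 13.8 CPM in Control WT, at 9.09, 3.76 and 5.22 CPM in AOM-DSS WT and at 4.34, 4.21 and 3.99 CPM in Claudin-2TG. Both AOM/DSS groups lay wholly below Control WT, the Claudin-2TG libraries were almost level, and AOM-DSS WT library 4 was closest to the controls. Fewer D cells and less *Sst* RNA per cell cannot be told apart in RNA of whole tissue, and the same holds for every other gene here.

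*Cck* encodes cholecystokinin, a hormone better known from the small intestine, and was near the limit of the measurement. *Cck* had 9, 10 and 16 counts in Control WT, 28, 33 and 19 counts in AOM-DSS WT and 6, 17 and 12 counts in Claudin-2TG, or 0.448, 0.502 and 0.695 CPM, 1.42, 1.46 and 1.27 CPM, and 0.413, 0.861 and 0.886 CPM. All AOM-DSS WT libraries were above all others, and Claudin-2TG overlapped Control WT. *Nts*, which encodes the peptide neurotensin, had 1, 2 and 2 counts in Control WT, 6, 24 and 5 counts in AOM-DSS WT and 2, 2 and 0 counts in Claudin-2TG. All libraries but those of AOM-DSS WT were at or below the floor of 3 counts, and library 5 held most of the counts of that group. *Neurod1*, a transcription factor of enteroendocrine differentiation, stood at 2.79, 3.21 and 2.39 CPM in Control WT, at 3.61, 3.54 and 2.34 CPM in AOM-DSS WT and at 3.58, 3.85 and 6.57 CPM in Claudin-2TG. The AOM-DSS WT libraries overlapped Control WT, and the Claudin-2TG libraries were all above it, library 9 standing out.

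**Figure D1:**
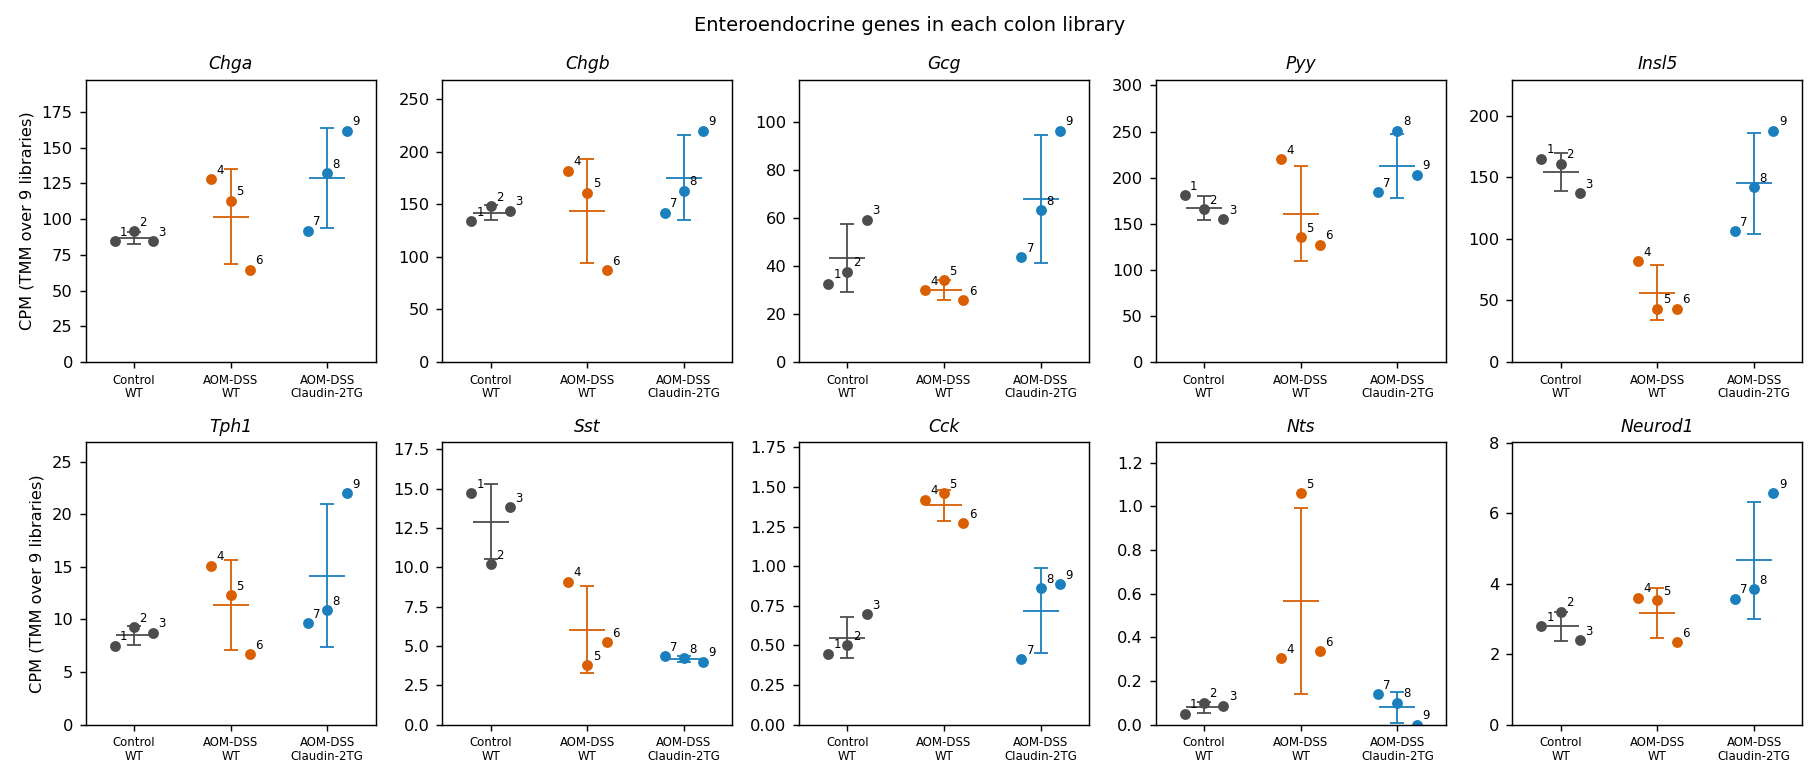
Level of each of the 10 enteroendocrine genes in each library, in CPM (TMM), with points numbered by library and the mean and SD of each group. *Insl5* is lowest in the 3 AOM-DSS WT libraries, *Cck* and *Nts* are highest there, and *Sst* is highest in the 3 Control WT libraries.

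Levels of different genes were compared per length, as CPM per kilobase of exon. On this scale the mean over the 9 libraries was 286 for *Pyy*, 164 for *Insl5*, 56.3 for *Chga*, 56.0 for *Chgb*, 31.4 for *Gcg*, 12.9 for *Sst*, 3.08 for *Tph1*, 1.30 for *Neurod1*, 1.29 for *Cck* and 0.206 for *Nts*. In Control WT the order was *Pyy* (265 ± 21.1), *Insl5* (213 ± 20.4), *Chgb* (51.8 ± 2.60), *Chga* (46.2 ± 2.20), *Gcg* (28.9 ± 9.47), *Sst* (21.6 ± 3.93), *Tph1* (2.31 ± 0.241), *Neurod1* (1.02 ± 0.151), *Cck* (0.800 ± 0.189) and *Nts*, all in CPM per kilobase (mean ± SD, n = 3). Of these neighbours *Gcg* and *Sst*, and *Neurod1* and *Cck*, did not differ beyond their SD. In AOM-DSS WT *Insl5* (77.6 ± 30.9) came within the SD of *Chga* (54.2 ± 17.7) and *Chgb* (52.3 ± 18.2), and *Cck* (2.02 ± 0.145) moved above *Neurod1* (1.16 ± 0.260) to within the SD of *Tph1* (3.09 ± 1.16). In Claudin-2TG *Pyy* (337 ± 54.4) and *Insl5* (201 ± 57.1) again led, *Gcg* (45.3 ± 17.8) reached the SD of *Chgb* (63.8 ± 14.9), and *Sst* was at 6.98 ± 0.296 CPM per kilobase.

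Of the summed level of the 10 genes per length, *Pyy* took 42.0 ± 1.44% in Control WT, 53.5 ± 3.29% in AOM-DSS WT and 46.7 ± 6.84% in Claudin-2TG (mean ± SD, n = 3 each). *Insl5* took 33.7 ± 1.83%, 16.1 ± 1.97% and 27.3 ± 3.53%, and *Sst* 3.42 ± 0.629%, 2.09 ± 0.544% and 0.985 ± 0.235%. The share of *Insl5* was therefore smallest in AOM-DSS WT, and that of *Sst* smallest in Claudin-2TG. By counts without division by length, *Pyy* took 27.0%, 31.4% and 28.8%, and *Insl5* 24.9%, 10.9% and 19.1%, in the same order of groups.

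In AOM-DSS WT against Control WT, *Insl5* fell and *Cck* rose. *Sst* was lower in all 3 AOM-DSS WT libraries but did not pass the edgeR test. The granins, *Gcg*, *Pyy*, *Tph1* and *Neurod1* overlapped between the groups. A gene is called when its edgeR p, adjusted by Benjamini-Hochberg over all genes tested, is under 0.05. Of the 10 genes 9 were tested, since *Nts* had too few counts, and 2 of 9 (22.2%) were called, 1 higher and 1 lower. Over all 15437 genes tested 15.0% were called, 8.04% higher and 6.92% lower, so the enteroendocrine share was near the background. Scaling by epithelial genes turned the split over all genes, from 1241 higher and 1069 lower to 762 higher and 1194 lower. The groups did not overlap for 3 of the 9 genes, against 38.0% of all genes tested, and the median log2 fold change of the 9 was 0.04 against 0.02 over all genes.

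*Insl5* fell by 1.43 on the log2 scale (SE 0.26, 95% CI -2.03 to -0.83, adjusted p 0.0170), a level 2.70-fold lower. It kept its call in all 9 alternatives that used every library, with log2 fold changes of -1.55 to -1.40. It lost the call without Control WT library 1 (log2 fold change -1.38, adjusted p 0.0571), library 2 (-1.40, 0.0742) or library 3 (-1.52, 0.0545), and without AOM-DSS WT library 4 it stood at -1.82 (adjusted p 1.67e-04). *Sst* had a log2 fold change of -1.07 (SE 0.33, 95% CI -1.83 to -0.31, adjusted p 0.0641). DESeq2 called *Sst* (adjusted p 0.0106), as did edgeR without AOM-DSS WT library 4 (-1.51, adjusted p 0.00507), whereas its adjusted p ranged from 0.0106 to 0.0896 over the 9 alternatives with all libraries, 4 of which called it. The other 3 that called it were edgeR fits, scaled by epithelial genes (0.0342), with no filter (0.0437) and with all 9 libraries (0.0287).

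*Cck* rose by 1.35 on the log2 scale (SE 0.32, 95% CI 0.61 to 2.09, adjusted p 0.0312), or 2.55-fold, from 9 to 16 counts per Control WT library. It was called in 4 of the 7 alternatives with all libraries that gave it a value (adjusted p 0.0254 to 0.0577, DESeq2 0.0543). It kept the call without AOM-DSS WT library 4 (adjusted p 0.0330) and lost it without Control WT library 1 (0.110), 2 (0.126) or 3 (0.0814) and without AOM-DSS WT library 5 (0.0740) or 6 (0.0718). *Nts* was left out by the filter on low counts. DESeq2, with its own filter, called it higher (adjusted p 0.0498), and edgeR with no filter did so too (adjusted p 0.0242). No fold is given for *Nts*, since its Control WT libraries had 1 or 2 counts each.

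For the other 6 genes the log2 fold changes ran from -0.50 for *Gcg* (SE 0.22, 95% CI -1.02 to 0.01, adjusted p 0.162) to 0.45 for *Tph1* (SE 0.28, 95% CI -0.20 to 1.10, adjusted p 0.311). *Chga* had 0.25 (95% CI -0.27 to 0.78), *Chgb* 0.04 (-0.52 to 0.60), *Pyy* -0.03 (-0.52 to 0.45) and *Neurod1* 0.21 (-0.43 to 0.84). These intervals leave room for changes of either sign, and scaling by epithelial genes turned the value of *Chgb* to -0.08.

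In Claudin-2TG against AOM-DSS WT, the L-cell genes *Gcg* and *Insl5* rose. *Cck* was lower in all 3 Claudin-2TG libraries and was not called. The granins, *Pyy*, *Tph1*, *Sst* and *Neurod1* overlapped between the groups. Of 9 genes tested 2 (22.2%) were called, both higher, against 9.54% of the 14888 genes tested, 2.19% higher and 7.35% lower. The groups did not overlap for 3 of the 9, 2 higher and 1 lower, against 28.5% of all genes, and the median log2 fold change of the 9 was 0.31 against 0.01 over all genes. With 9 genes chosen in view of earlier results, these shares are a description.

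*Gcg* rose by 1.15 on the log2 scale (SE 0.27, 95% CI 0.54 to 1.77, adjusted p 0.0347), or 2.22-fold. All 9 alternatives with every library called it, from 1.01 to 1.17 and with adjusted p from 4.03e-04 (DESeq2) to 0.0397. When libraries were left out, *Gcg* kept the call without Claudin-2TG library 7 (1.40, adjusted p 0.0292). It lost the call without AOM-DSS WT library 4 (1.16, 0.0539), 5 (1.24, 0.0843) or 6 (1.07, 0.103), and without Claudin-2TG library 8 (1.21, 0.102) or 9 (0.82, 0.0882).

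*Insl5* rose by 1.35 (SE 0.31, 95% CI 0.62 to 2.07, adjusted p 0.0368), or 2.54-fold, and was called in 8 of the 9 alternatives with every library (adjusted p 7.74e-05 to 0.129). The exception was the fit with no filter on low counts (1.36, adjusted p 0.129). It kept the call without AOM-DSS WT library 4, where the rise was larger (1.74, adjusted p 0.00106). It lost the call without library 5 (1.17, 0.115), 6 (1.20, 0.115), 7 (1.53, 0.0621), 8 (1.37, 0.116) or 9 (1.13, 0.118).

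*Pyy*, the remaining L-cell gene, had a log2 fold change of 0.38 (SE 0.23, 95% CI -0.14 to 0.90, adjusted p 0.376) and was called only without AOM-DSS WT library 4 (0.69, adjusted p 0.0120). *Cck* had -0.95 (SE 0.38, 95% CI -1.81 to -0.10, adjusted p 0.162). *Sst* had -0.55 (SE 0.34, 95% CI -1.31 to 0.21, adjusted p 0.388), and the groups overlapped through AOM-DSS WT library 5. Without AOM-DSS WT library 4 the value for *Sst* was -0.11 (adjusted p 0.841). *Chga* had 0.31 (95% CI -0.35 to 0.97), *Chgb* 0.26 (-0.39 to 0.91), *Tph1* 0.29 (-0.61 to 1.18) and *Neurod1* 0.53 (-0.21 to 1.27), with adjusted p of 0.395 to 0.750. *Nts* was not tested by the edgeR fit, and its adjusted p was 0.137 by DESeq2 and 0.0507 with no filter.

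In Claudin-2TG against Control WT, *Sst* fell, and it was the sole gene of the 9 tested to pass. *Insl5* and *Gcg* overlapped between these groups. *Chga*, *Pyy*, *Tph1* and *Neurod1* were higher in all 3 Claudin-2TG libraries and were not called. The call of 1 of 9 genes (11.1%), lower, was near the background of 10.0% of the 15013 genes tested, 3.92% higher and 6.07% lower. That split depended on scaling, with 589 genes higher and 912 lower here. Scaled by epithelial genes it was 141 and 1915, and by library size only 276 and 1310. The groups did not overlap for 5 of the 9, 4 higher and 1 lower, against 31.2% of all genes, and the median log2 fold change was 0.40 against 0.00 over all genes.

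*Sst* fell by 1.62 on the log2 scale (SE 0.19, 95% CI -2.04 to -1.20, adjusted p 0.00148), a level 3.08-fold lower. It kept the call in all 9 alternatives with every library (-1.84 to -1.50, adjusted p 7.71e-13 to 0.0261) and in all 6 fits without a library (-1.76 to -1.51, adjusted p 0.00136 to 0.0112). The fit without Control WT library 1, the library with *Xist*, gave -1.51 (adjusted p 0.00690). Of the 10 genes *Sst* was the sole one whose call held in each of these fits in any comparison.

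*Chga* had a log2 fold change of 0.57 (SE 0.17, 95% CI 0.18 to 0.96, adjusted p 0.0726), was called by DESeq2 (adjusted p 0.0147) and in 3 of the 9 alternatives with every library, and was called by edgeR without Claudin-2TG library 7 (0.75, adjusted p 0.00671). *Pyy* had 0.35 (SE 0.12, 95% CI 0.08 to 0.62, adjusted p 0.0960), with a call without Claudin-2TG library 7 (0.44, adjusted p 0.0497) and in 1 of the 9 alternatives with every library, the fit with no filter (0.0218). *Tph1* had 0.74 (SE 0.29, 95% CI 0.08 to 1.40, adjusted p 0.148), with a call in the fit with no filter (0.00118), and *Neurod1* 0.74 (SE 0.28, 95% CI 0.13 to 1.35, adjusted p 0.120). These 4 genes were thus higher in each Claudin-2TG library without passing the filtered edgeR test with all 6 libraries. The summed general epithelial genes were also higher in each Claudin-2TG library (29671 to 35224 CPM) than in each control (27132 to 29162 CPM). Of these 20 genes 2 were called higher (median 0.10). Summed smooth muscle markers were lower, at 1100 to 1701 against 2288 to 4447 CPM. The part of epithelial content in the 4 genes was not tested. Without Claudin-2TG library 9 the edgeR values were smaller for *Chga* (0.37, adjusted p 0.163), *Tph1* (0.28, 0.364) and *Neurod1* (0.42, 0.362). Without library 8 *Pyy* had 0.21 (adjusted p 0.320). Over the alternatives with every library *Pyy* ran from 0.13 to 0.35 and *Chga* from 0.34 to 0.58. *Chgb* had 0.31 (95% CI -0.02 to 0.63), *Gcg* 0.65 (-0.23 to 1.54), *Cck* 0.40 (-0.52 to 1.31) and *Insl5* -0.08 (-0.51 to 0.34), with adjusted p of 0.213 to 0.822. *Nts* was not tested by the edgeR fit and stood at or below 3 counts in all 6 libraries.

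**Figure D2:**
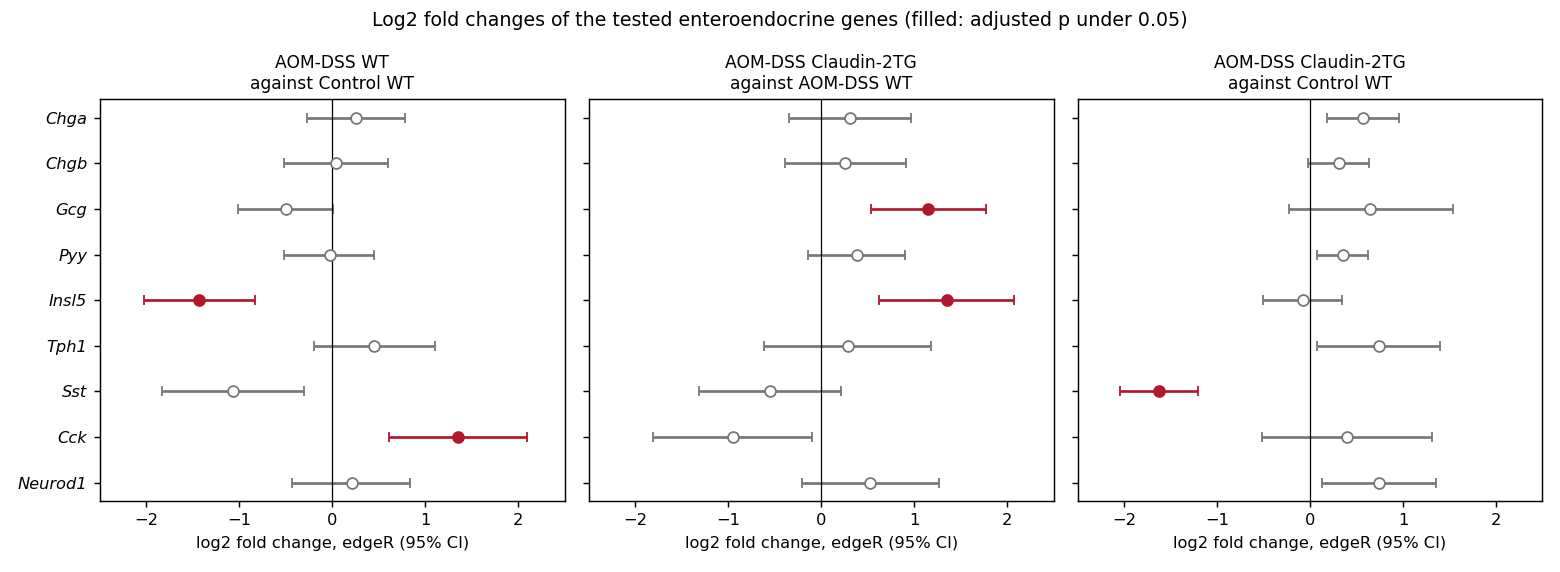
Log2 fold change with its 95% CI for the 9 tested enteroendocrine genes in the 3 comparisons, with an edgeR adjusted p under 0.05 marked by filled red points. *Insl5* is at -1.43 in AOM-DSS WT against Control WT and at 1.35 in Claudin-2TG against AOM-DSS WT, and *Sst* is at -1.62 in Claudin-2TG against Control WT.

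Side by side, the log2 fold change of *Insl5* was -1.43, 1.35 and -0.08 in AOM-DSS WT against Control WT, Claudin-2TG against AOM-DSS WT, and Claudin-2TG against Control WT. *Gcg* had -0.50, 1.15 and 0.65 in this order, and *Sst* had -1.07, -0.55 and -1.62. Without AOM-DSS WT library 4, *Sst* had -1.51 and -0.11 in the first and second comparison. For *Insl5* the test against Control WT was passed by AOM-DSS WT and missed by Claudin-2TG, while every library of both AOM/DSS groups was below Control WT for *Sst*. The first pair of comparisons uses the AOM-DSS WT libraries with opposite sign, and no test of a difference between comparisons was made.

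Each hormone gene was also divided by *Chga*, count by count, to describe the mix of hormones relative to a general granule gene. The ratio of *Insl5* to *Chga* was 1.95, 1.75 and 1.63 in Control WT, 0.638, 0.382 and 0.672 in AOM-DSS WT and 1.15, 1.08 and 1.16 in Claudin-2TG. The 3 groups did not overlap for this ratio, with means of 1.78 ± 0.163, 0.564 ± 0.158 and 1.13 ± 0.0448 (SD, n = 3 each). In Claudin-2TG against Control WT the lower ratio came with higher *Chga* (log2 fold change 0.57, not called), while *Insl5* itself overlapped (-0.08). *Gcg* per *Chga* was 0.386, 0.409 and 0.700 in Control WT, 0.233, 0.302 and 0.400 in AOM-DSS WT and 0.475, 0.478 and 0.595 in Claudin-2TG. The Claudin-2TG libraries were all above AOM-DSS WT for *Gcg* and within the Control WT range.

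*Sst* per *Chga* was 0.174, 0.112 and 0.163 in Control WT, 0.0708, 0.0333 and 0.0810 in AOM-DSS WT and 0.0472, 0.0318 and 0.0246 in Claudin-2TG. Both AOM/DSS groups were below Control WT for this ratio and overlapped each other. *Tph1* per *Chga* was 0.0889, 0.101 and 0.103, then 0.117, 0.109 and 0.104, then 0.105, 0.0829 and 0.136 in the 3 groups, and *Pyy* per *Chga* had means of 1.93 ± 0.189, 1.63 ± 0.395 and 1.72 ± 0.403. *Tph1* per *Chga* was thus marginally higher in AOM-DSS WT than in Control WT, and *Pyy* per *Chga* overlapped between all groups. By two-sided exact permutation test, the smallest p that 3 against 3 libraries allow is 0.1, so no ratio could pass. Of 15 relations 7 reached it (Benjamini-Hochberg adjusted p 0.214), which for 3 against 3 libraries means groups that do not overlap, namely *Insl5* in all 3 comparisons, *Gcg* in Claudin-2TG against AOM-DSS WT, *Tph1* in AOM-DSS WT against Control WT, and *Sst* in both comparisons with Control WT. These are 3, 2 and 2 of 5 genes in the comparisons of AOM-DSS WT with Control WT, Claudin-2TG with AOM-DSS WT and Claudin-2TG with Control WT, beside 21.4%, 13.8% and 41.1% of all other tested genes divided by *Chga*. With 5 chosen genes this is a description.

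Genes whose log2 CPM most resembled that of a member over the 9 libraries were ranked among 13915 genes by Pearson r, as a description, since the libraries share groups. *Chga* was most like *Nkx2-2* (r 0.952, rho 1), *Vsig10l* (0.937, 0.950), *Chgb* (0.934, 0.933), *Tph1* (0.933, 0.950), *Stard5* (0.930, 0.883) and *Akr1c19* (0.926, 0.867), with n = 9 libraries. *Gcg* was most like *Tpd52* (0.965, 0.950), *Krt83* (0.963, 0.933), *Etfa* (0.945, 0.950), *AI464131* (0.931, 0.917), *Grpel1* (0.921, 0.883) and *H3f3a* (0.904, 0.850). For *Chga* the nearest genes thus included 2 other members and *Nkx2-2*, a transcription factor of the enteroendocrine lineage, whereas none of those nearest to *Gcg* was in any enteroendocrine list.

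*Tph1* was most like *Taf7* (r 0.972, rho 0.967), *Sdcbp2* (0.944, 0.933), *Slc35e2* (0.941, 0.883), *4931406C07Rik* (0.937, 0.817), *Stard5* (0.937, 0.933) and *Chga* (0.933, 0.950). *Sst* was most like *Sv2a* (0.984, 0.933), *Tubb3* (0.983, 0.983), *Popdc2* (0.980, 0.900), *Sncg* (0.978, 0.950), *Apbb1* (0.977, 0.900) and *Acta2* (0.976, 0.900). Of these, *Tubb3* is in the list of enteric neuron markers, *Acta2* in that of smooth muscle markers and *Sv2a* in that of secretory granules.

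The enteric neuron markers were therefore given in full beside *Sst*. The 20 markers summed to 194, 122 and 186 CPM in Control WT, to 87.3, 60.3 and 77.3 in AOM-DSS WT and to 60.1, 34.8 and 39.1 in Claudin-2TG. None was at or below 3 counts in every library, and *Vip* was the most abundant, with 19.1% of the sum. Of 18 tested, 9 were called lower in AOM-DSS WT against Control WT (median log2 fold change -1.46), 1 lower in Claudin-2TG against AOM-DSS WT (-0.35) and 14 lower in Claudin-2TG against Control WT (-1.95), with none higher. The called shares of all genes tested were 15.0%, 9.54% and 10.0%. The 1 call in Claudin-2TG against AOM-DSS WT was *Ret*, which did not move with the list in AOM-DSS WT. *Ret* stood at 7.33 to 12.2 CPM in Control WT, at 6.96, 31.1 and 29.1 CPM in AOM-DSS WT and at 3.17, 2.99 and 2.59 CPM in Claudin-2TG, lower in Claudin-2TG than in either other group and highest in AOM-DSS WT libraries 5 and 6. Its log2 fold change was 1.19 (adjusted p 0.164) in AOM-DSS WT against Control WT and -2.96 (0.0201) in Claudin-2TG against AOM-DSS WT, with the latter call kept only without library 4 or 6 (up to 0.0982). *Tubb3*, a neuronal tubulin, stood at 11.3, 8.13 and 11.2 CPM, then 4.98, 2.12 and 3.75 CPM, then 2.82, 2.18 and 2.07 CPM, with a log2 fold change of -2.11 (SE 0.22, adjusted p 9.33e-04) in Claudin-2TG against Control WT. *Tubb3*, like *Sst*, was lower in every AOM/DSS library than in every control. In the same comparison *Syt1* (-2.38), *Ret* (-1.77), *Chrna3* (-3.09) and *Hand2* (-1.79) had adjusted p of 0.00148 to 0.00550, and these and *Tubb3* kept their calls without each library.

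The 10 smooth muscle markers, with *Tagln* the most abundant, summed to 4447, 2288 and 3412 CPM in Control WT, to 3220, 1222 and 1434 in AOM-DSS WT and to 1467, 1701 and 1100 in Claudin-2TG. None of the 10 was at or below 3 counts in every library, and 5 were called lower in Claudin-2TG against Control WT (median -1.22). All 10 had an unadjusted edgeR p under 0.05 in that comparison, and DESeq2 called 10. edgeR called 0 in AOM-DSS WT against Control WT, where 4 had an unadjusted p under 0.05 and DESeq2 called 4 (median -0.81). It also called 0 in Claudin-2TG against AOM-DSS WT, where none had an unadjusted p under 0.05 and DESeq2 called 0 (median -0.47). The sums of both lists were thus smaller in Claudin-2TG than in Control WT, as was *Sst*, and their part in the fall of *Sst* was not tested.

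**Figure D3:**
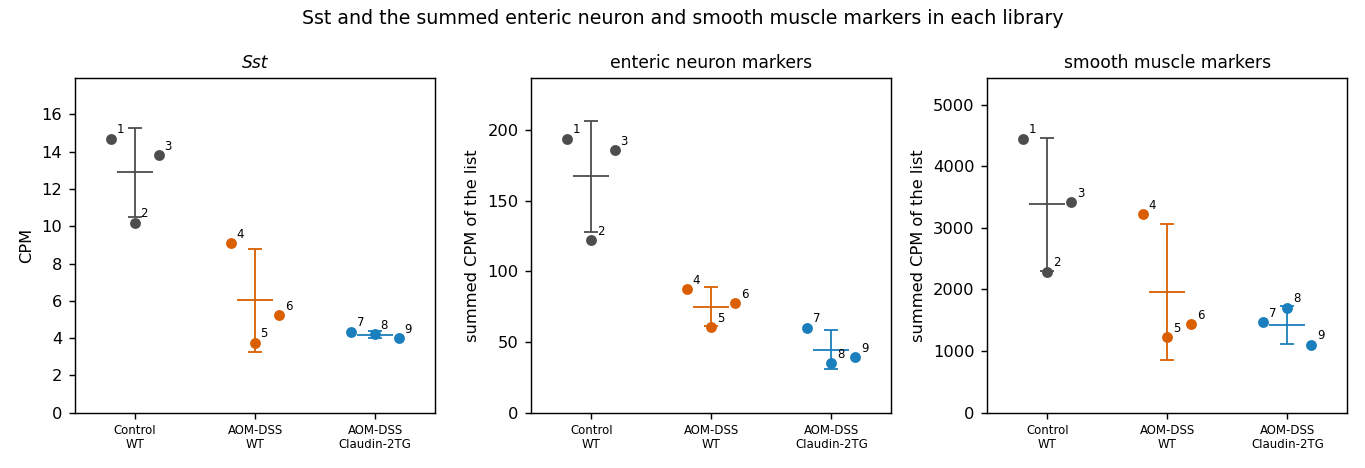
*Sst* (CPM) and the summed CPM of 20 enteric neuron markers and of 10 smooth muscle markers in each library, with mean and SD per group. *Sst* runs from 10.2 to 14.7 CPM in Control WT and from 3.99 to 4.34 CPM in Claudin-2TG, and both marker sums are also smaller in Claudin-2TG.

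Secretory granules and peptide processing were described by 27 genes, among them *Chga*, *Chgb* and the neuron marker *Snap25*. In AOM-DSS WT against Control WT 9 of 27 were called, all lower (median log2 fold change -0.81). In Claudin-2TG against AOM-DSS WT edgeR called 0, with 5 at an unadjusted p under 0.05 and 1 by DESeq2 (median 0.16). In Claudin-2TG against Control WT 9 were called, all lower (median -0.52). In that comparison 14 of 18 enteric neuron markers (median -1.95) and 5 of 6 enteric glia markers (-1.88), all but the most abundant, were also called lower, and in AOM-DSS WT against Control WT 9 of 18 neuron markers were. In each comparison with Control WT 18 of the 27 granule genes were not called, and the part of neurons and glia in the calls of the other 9 was not tested. The sum of the list was 862, 827 and 850 CPM, then 809, 732 and 553 CPM, then 766, 759 and 878 CPM, so the summed level overlapped between Claudin-2TG and Control WT. *Pam*, which amidates peptide hormones, was the most abundant gene of the list and was called in no comparison.

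*Ptprn*, a membrane protein of dense-core granules, stood at 12.5, 9.19 and 11.5 CPM in Control WT, at 6.25, 3.10 and 3.95 CPM in AOM-DSS WT and at 4.41, 4.76 and 5.32 CPM in Claudin-2TG. All libraries of both AOM/DSS groups were below all controls. *Scg3*, a granin that binds *Chga* protein, stood at 7.32, 4.72 and 7.77 CPM, then 3.05, 2.21 and 1.27 CPM, then 2.07, 2.28 and 3.03 CPM. *Scg2*, the precursor of secretoneurin, stood at 20.7, 16.2 and 23.2 CPM, then 13.3, 9.73 and 10.2 CPM, then 10.4, 10.4 and 8.42 CPM. Both were lower in each AOM/DSS library than in each control, while *Chga* and *Chgb* were not.

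In Claudin-2TG against Control WT the log2 fold changes were -1.19 for *Ptprn* (SE 0.19, adjusted p 0.00517), -1.43 for *Scg3* (SE 0.26, 0.00919), -1.03 for *Scg2* (SE 0.17, 0.00574), -0.61 for *Cpe* (SE 0.10, 0.00519) and -1.55 for *Rab3c* (SE 0.26, 0.00692). *Cpe* encodes the carboxypeptidase that trims hormone precursors, and *Rab3c* a small GTPase of secretory vesicles. These 5 kept their calls in each of the 6 fits without a library, with adjusted p of at most 0.0449. *Cpe* lost its call in the fit of all 9 libraries (adjusted p 0.0735).

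In AOM-DSS WT against Control WT the values were -1.29 for *Ptprn* (adjusted p 0.0265), -1.56 for *Scg3* (0.0275), -0.83 for *Scg2* (0.0284), -0.66 for the convertase inhibitor gene *Pcsk1n* (0.0332), -0.98 for the calcium sensor gene *Scgn* (0.0402) and -0.67 for *Cpe* (0.0444). Each of these 6 kept its call only without AOM-DSS WT library 4. Without any of the other 5 libraries their adjusted p reached at most 0.0913 for *Ptprn*, 0.101 for *Scg3*, 0.110 for *Scg2*, 0.106 for *Pcsk1n*, 0.124 for *Scgn* and 0.132 for *Cpe*.

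Serotonin synthesis, storage, uptake and breakdown were described by 18 genes, with *Tph1* among them. Among all genes tested 15.0%, 9.54% and 10.0% were called in the 3 comparisons, in the order below. Of 13 tested in AOM-DSS WT against Control WT 2 were called higher and 8 lower (median -0.81), of 11 in Claudin-2TG against AOM-DSS WT 5 higher and 1 lower (0.44), and of 13 in Claudin-2TG against Control WT 3 lower (0.03). *Tph2*, the neuronal synthesis enzyme, was at or below 3 counts in every library, as were *Htr1d* and *Htr2a*. *Tph1* itself was called in no comparison, while genes that act after it in the pathway were. Markers of other cells moved in the same comparisons. The colonocyte markers had 3 of 15 called lower in AOM-DSS WT against Control WT and the same 3 higher in Claudin-2TG against AOM-DSS WT, *Aqp8* (-1.51 and 1.84), *Car4* (-1.65 and 1.90) and *Slc26a2* (-1.38 and 1.20), the directions of *Ddc*, *Maoa* and *Maob* below. Enteric neuron markers were called lower against Control WT, 9 and 14 of 18, as were *Htr3a* and *Htr3b*. The leukocyte markers had 10 of 16 higher and then 9 of 15 lower, as *Slc18a1* had. The mast cell markers had 4 of 7 higher and 1 lower (median 2.55), then 1 of 7 higher and 2 lower (-2.09). Of the mast cell markers, *Mcpt1* (5.99, 12.2 and 39.4 CPM), *Mcpt2* and *Tpsb2* rose from AOM-DSS WT library 4 to 6 as *Slc18a1* did. *Hdc* (0.813, 3.94 and 1.87 CPM), *Kit* and *Cma1* did not. The order was not particular to mast cells. The tuft cell marker *Avil* (6.76, 24.1 and 55.1 CPM) and the enteroendocrine factor *Isl1* (3.81, 5.75 and 8.77 CPM) rose likewise. The summed leukocyte markers were highest in library 5. The part of colonocytes, neurons, leukocytes, mast cells and tuft cells in the serotonin genes was not tested. The sums of the colonocyte, neuron and leukocyte lists are given with those lists.

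*Ddc* encodes the decarboxylase that completes serotonin synthesis, and also acts in dopamine synthesis. *Ddc* stood at 169, 185 and 139 CPM in Control WT, at 86.7, 71.6 and 61.6 CPM in AOM-DSS WT and at 144, 155 and 144 CPM in Claudin-2TG. All AOM-DSS WT libraries were below all others, and Claudin-2TG overlapped Control WT. Its log2 fold change was -1.14 (SE 0.16, adjusted p 0.00885) in AOM-DSS WT against Control WT, where the call was lost without Control WT library 2 (0.0537). For Claudin-2TG against AOM-DSS WT it was 0.99 (SE 0.15, adjusted p 0.00879), lost without Claudin-2TG library 8 (0.0565) or 9 (0.0506), and in Claudin-2TG against Control WT -0.15 (adjusted p 0.447).

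*Maoa* and *Maob* encode the monoamine oxidases that break serotonin down. *Maoa*, the most abundant gene of the list with 65.3% of its sum, stood at 875, 724 and 791 CPM, then 545, 429 and 379 CPM, then 812, 906 and 961 CPM. *Maob* stood at 50.7, 41.1 and 42.2 CPM, then 23.6, 17.6 and 13.1 CPM, then 44.8, 50.5 and 41.1 CPM. Both were lowest in the 3 AOM-DSS WT libraries. *Maoa* had a log2 fold change of -0.79 (SE 0.16, adjusted p 0.0206) in AOM-DSS WT against Control WT, called without library 4 (0.00237) and not without any of the other 5 (up to 0.0738). Claudin-2TG against AOM-DSS WT gave 0.96 (SE 0.16, 0.0121), with the call lost without library 8 (0.0663) or 9 (0.0688). *Maob* had -1.27 (SE 0.21, 0.0132), with the call lost without Control WT library 2 (0.0585), and 1.30 (SE 0.21, 0.0108), with the call lost without library 8 (0.0607) or 9 (0.0534).

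*Slc6a4* encodes the serotonin transporter that clears serotonin, and *Slc18a1* the vesicular transporter that loads it into granules. *Slc6a4* stood at 31.2, 36.9 and 30.6 CPM in Control WT, at 21.6, 20.5 and 13.2 CPM in AOM-DSS WT and at 43.1, 35.7 and 31.5 CPM in Claudin-2TG. *Slc18a1* went the other way, at 4.53, 5.93 and 4.08 CPM, then 9.14, 18.3 and 29.5 CPM, then 6.13, 4.97 and 5.69 CPM. AOM-DSS WT was the lowest group for *Slc6a4* and the highest for *Slc18a1*, with no overlap with either other group. *Slc18a1* had log2 fold changes of 1.99 (SE 0.41, adjusted p 0.0230) and -1.78 (SE 0.39, 0.0281) in the comparisons of AOM-DSS WT with Control WT and of Claudin-2TG with AOM-DSS WT, and 0.21 (0.568) in Claudin-2TG against Control WT. *Slc6a4* had -0.81 (SE 0.19, 0.0312) and 0.97 (SE 0.21, 0.0242). All 4 of these calls held without AOM-DSS WT library 4 or 6 and were lost without library 5 or any library of the other group, with adjusted p up to 0.126 for *Slc18a1* and 0.120 for *Slc6a4*.

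Among the other serotonin genes, the receptor gene *Htr4* had -1.47 (adjusted p 0.0195) in AOM-DSS WT against Control WT and 1.36 (0.0215) in Claudin-2TG against AOM-DSS WT. These calls were lost without Control WT library 2 or 3 or AOM-DSS WT library 5 or 6 in the first comparison (up to 0.0840), and without any library but 4 in the other (up to 0.0931). *Gch1*, which makes the cofactor of tryptophan hydroxylase, had 0.73 (0.0261) in AOM-DSS WT against Control WT and kept the call only without library 4 (up to 0.101). The receptor genes *Htr3a* and *Htr2b* were called lower in Claudin-2TG against Control WT (-2.45, 0.00807, for *Htr3a*, and 0.0131 for *Htr2b*, with no fold given, since Claudin-2TG library 8 was at the floor of 3 counts) and kept both calls without each library. In AOM-DSS WT against Control WT they were also called lower, with -2.17 (0.0293) for *Htr3a*, lost without Control WT library 1, 2 or 3 or AOM-DSS WT library 6 (up to 0.0898), and -1.28 (0.0453) for *Htr2b*, kept only without library 4 (up to 0.138). *Htr3b* was called lower in both comparisons with Control WT, with a library at 0 counts in each AOM/DSS group, so no fold is given. Its calls were lost without Control WT library 1, 2 or 3 or AOM-DSS WT library 6 (up to 0.0928), and without Control WT library 1 or 3 or Claudin-2TG library 8 or 9 (up to 0.0916).

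The list of 22 enteroendocrine transcription factors, *Neurod1* included, had 21 tested in each comparison. The list gave 1 higher and 1 lower in AOM-DSS WT against Control WT (median -0.07), 2 higher and 1 lower in Claudin-2TG against AOM-DSS WT (0.34), and 1 higher and 2 lower in Claudin-2TG against Control WT (0.07). This was 2, 3 and 3 of 21, beside 15.0%, 9.54% and 10.0% of all genes tested, so the list was near the background. *Foxa1* was the most abundant, at a mean of 103 CPM, and was not called. *Foxa2*, which with *Foxa1* acts in the L- and D-cell lineages, stood at 82.0, 65.0 and 67.5 CPM in Control WT, at 33.3, 27.8 and 27.0 CPM in AOM-DSS WT and at 52.8, 53.3 and 53.3 CPM in Claudin-2TG. The 3 groups did not overlap, with AOM-DSS WT lowest and Control WT highest. *Foxa1* and *Foxa2* (mean 51.3 CPM) were far more abundant than *Neurod1* (3.54 CPM). The part of other epithelial cells in *Foxa1* and *Foxa2* was not tested.

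*Foxa2* had a log2 fold change of -1.26 (SE 0.14, adjusted p 0.00492) in AOM-DSS WT against Control WT and kept this call without each library (up to 0.0274). Against AOM-DSS WT, Claudin-2TG had 0.83 (SE 0.13, 0.00957), with the call lost without Claudin-2TG library 8 (0.0593) or 9 (0.0550). Against Control WT it had -0.42 (SE 0.11, 0.0360), a call that was kept only without Control WT library 2 (0.0386) and otherwise ranged up to 0.109.

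*Isl1*, a factor of several hormone cell types, stood at 2.39, 1.46 and 1.91 CPM in Control WT, at 3.81, 5.75 and 8.77 CPM in AOM-DSS WT and at 1.93, 2.08 and 2.14 CPM in Claudin-2TG. AOM-DSS WT was the highest group, with log2 fold changes of 1.69 (SE 0.36, adjusted p 0.0245) against Control WT and of -1.59 (SE 0.34, 0.0235) for Claudin-2TG against AOM-DSS WT. Both calls were kept only without library 4, and the adjusted p otherwise ranged up to 0.0985 and 0.101. *Mnx1*, another homeobox factor of the list, stood at 2.54, 2.46 and 2.82 CPM, then 2.59, 1.77 and 1.61 CPM, then 5.24, 4.26 and 4.58 CPM. It was highest in the 3 Claudin-2TG libraries.

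*Mnx1* had 1.21 (SE 0.29, adjusted p 0.0343) against AOM-DSS WT, kept only without library 4 (up to 0.130), and 0.85 (SE 0.22, 0.0328) against Control WT, lost without each of the 6 libraries (0.0684 to 0.0875). *Etv1* had -1.38 (SE 0.33, 0.0258) in Claudin-2TG against Control WT, kept only without Control WT library 2 (up to 0.113). Enteric neuron and smooth muscle markers were also called lower there, 14 of 18 and 5 of 10. The part of these cells in *Etv1* was not tested.

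Of 14 genes of the secretory lineage and of Notch signalling, which restrains that lineage in the crypt, 13, 12 and 12 were tested. The called shares over all genes tested were 15.0%, 9.54% and 10.0% in the 3 comparisons. Of this list, in AOM-DSS WT against Control WT 2 were higher and 1 lower (median 0.05), in Claudin-2TG against AOM-DSS WT 1 was lower (0.15), and in Claudin-2TG against Control WT 3 were higher (0.08). *Hes6*, the most abundant, stood at 86.6, 94.0 and 84.1 CPM in Control WT, at 178, 173 and 340 CPM in AOM-DSS WT and at 126, 141 and 147 CPM in Claudin-2TG, without overlap between the groups. It had 1.41 (SE 0.27, adjusted p 0.0189) in AOM-DSS WT against Control WT, lost without any Control WT library (up to 0.0770), and 0.65 (SE 0.10, 0.00449) in Claudin-2TG against Control WT, kept without each library. The Notch ligand gene *Dll4* had 0.62 (0.0283) and 0.72 (0.0105) in these comparisons, kept only without AOM-DSS WT library 4 in the first (up to 0.116) and lost only without Control WT library 3 in the other (0.0502).

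*Hes1*, the Notch target that represses secretory fate, had -0.65 (SE 0.12, adjusted p 0.0184) in AOM-DSS WT against Control WT, lost without any Control WT library (up to 0.0828). *Dll1* had 0.58 (0.0384) in Claudin-2TG against Control WT, lost without Control WT library 2 or 3 or Claudin-2TG library 7 or 8 (up to 0.153). *Mfng* had -1.36 (0.0377) in Claudin-2TG against AOM-DSS WT, kept only without library 4 or 6 (up to 0.139).

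Sensors through which enteroendocrine cells read nutrients, bile acids and other signals were described by 22 genes. Of 16, 14 and 14 tested, 1 was higher and 5 lower in AOM-DSS WT against Control WT (median -0.20), 2 higher and 1 lower in Claudin-2TG against AOM-DSS WT (0.13), and 2 lower in Claudin-2TG against Control WT (-0.11). Beside these counts, 15.0%, 9.54% and 10.0% of all genes tested were called. *Ffar2* and *Ffar3* encode receptors for short-chain fatty acids. *Ffar2* stood at 10.9, 11.5 and 17.4 CPM in Control WT, at 7.01, 8.45 and 6.29 CPM in AOM-DSS WT and at 6.89, 7.09 and 7.39 CPM in Claudin-2TG, with all AOM/DSS libraries below all controls. *Ffar3* stood at 1.05, 1.21 and 1.30 CPM, then 0.305, 0.265 and 0.201 CPM, then 1.03, 0.760 and 0.886 CPM, so AOM-DSS WT was the lowest group and the Claudin-2TG libraries were also below all controls.

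*Ffar2* had -0.85 (SE 0.23, adjusted p 0.0433) in AOM-DSS WT against Control WT, kept only without library 4 (up to 0.145), and -0.89 (SE 0.20, 0.0188) in Claudin-2TG against Control WT, lost without Control WT library 3 (0.0814) or Claudin-2TG library 8 (0.0688). *Ffar3* was called lower in AOM-DSS WT against Control WT (0.0131), lost without Control WT library 2 (0.0668) or 3 (0.0605). It was called higher in Claudin-2TG against AOM-DSS WT (0.0331), kept only without library 4 (0.0306, otherwise up to 0.136), and DESeq2 did not call it (0.123). No fold is given for *Ffar3* in these comparisons, since AOM-DSS WT library 6 was at the floor of 3 counts.

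*Slc5a1*, the glucose transporter and the most abundant gene of the list, had -0.63 (adjusted p 0.0175) in AOM-DSS WT against Control WT, lost without any Control WT library (up to 0.0788), and 0.50 (0.0440) in Claudin-2TG against AOM-DSS WT, kept only without library 4 (up to 0.135). *Ffar4*, the next most abundant, was called in no comparison and had 0.67 (0.0529) in AOM-DSS WT against Control WT. *Trpm5* had -1.25 (0.0183), lost without Control WT library 2 or 3 (up to 0.0803), in AOM-DSS WT against Control WT. It is also in the list of tuft cell markers, of which 4 of 12 tested, *Trpm5* included, were called lower in that comparison. *Galr1* was called lower there (0.0396), at 0.254, 0.133 and 0.201 CPM against 0.565 to 0.697 CPM in Control WT, and kept the call only without library 4 (up to 0.131). No fold is given for *Galr1*, since AOM-DSS WT libraries 5 and 6 were at the floor of 3 counts. *Cnr1* had -2.23 (0.00676) in Claudin-2TG against Control WT and kept the call without each library. In that comparison 14 of 18 enteric neuron markers were called lower. For *Slc5a1*, 3 of 15 colonocyte markers were likewise called lower in AOM-DSS WT against Control WT and 3 higher in Claudin-2TG against AOM-DSS WT. The part of tuft cells in *Trpm5*, of neurons in *Cnr1* and of colonocytes in *Slc5a1* was not tested. *Trpa1* was called higher in AOM-DSS WT than in both other groups, at 0.914, 2.12 and 1.34 CPM, against 0.151 to 0.448 CPM in Control WT and 0 to 0.295 CPM in Claudin-2TG, and these calls were kept only without library 4 (up to 0.0954 and 0.114). *Gpr142* and *Slc2a2* were at or below 3 counts in every library.

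Receptors and the degrading enzyme of the hormones were described by 19 genes, of which *Glp1r*, *Sstr4*, *Cckbr* and *Ntsr2* were at or below 3 counts in every library. Of 11, 9 and 11 tested, 4 were lower in AOM-DSS WT against Control WT (median -0.91), 1 was higher in Claudin-2TG against AOM-DSS WT (0.50) and 3 were lower in Claudin-2TG against Control WT (-0.41). The share called over all genes tested was 15.0%, 9.54% and 10.0%. *Dpp4*, which encodes the peptidase that inactivates glucagon-like peptides and trims peptide YY, stood at 54.4, 59.8 and 63.8 CPM in Control WT, at 25.2, 25.4 and 21.8 CPM in AOM-DSS WT and at 46.3, 45.8 and 46.8 CPM in Claudin-2TG. The 3 groups did not overlap, with AOM-DSS WT lowest. *Dpp4* had -1.27 (SE 0.12, adjusted p 0.00243) in AOM-DSS WT against Control WT, kept without each library (5.25e-04 to 0.0236).

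*Dpp4* had 0.92 (SE 0.12, 0.00777) in Claudin-2TG against AOM-DSS WT, lost without Claudin-2TG library 8 (0.0520), and in Claudin-2TG against Control WT -0.35 (SE 0.10, 0.0422), lost without each of the 6 libraries (0.0532 to 0.184). *Sort1*, the neurotensin-binding receptor and most abundant gene of the list, had -0.68 (0.0198), *Sstr1* -1.56 (0.0350) and *Npy1r* -1.03 (0.0385) in AOM-DSS WT against Control WT. All 3 were lost without any Control WT library or AOM-DSS WT library 6, and *Sstr1* and *Npy1r* also without library 5 (up to 0.0830, 0.105 and 0.145). *Npy4r*, a receptor for pancreatic polypeptide, had -2.29 (0.00450) in Claudin-2TG against Control WT, kept without each library. *Cckar* was called lower there, from 0.547, 0.653 and 1.17 CPM in Control WT to at most 3 counts in each Claudin-2TG library, and lost the call without libraries 3, 8 or 9 (up to 0.0837).

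Other gut hormones and peptides were described by 18 genes, of which *Mln* was not in the table and *Gip*, *Gast*, *Ucn3* and *Calca* were at or below 3 counts in every library. Over all genes tested 15.0%, 9.54% and 10.0% were called in the 3 comparisons. Of 10, 9 and 9 tested in this list, 2 were higher and 1 lower in AOM-DSS WT against Control WT (median -0.47), 2 were lower in Claudin-2TG against AOM-DSS WT (-0.67) and 4 were lower in Claudin-2TG against Control WT (-1.57). The most abundant, the guanylin gene *Guca2a*, is made by colonocytes as well and was called in no comparison, as was *Tac1*. The uroguanylin gene *Guca2b* stood at 12.9, 13.2 and 13.2 CPM in Control WT, at 20.9, 20.9 and 27.4 CPM in AOM-DSS WT and at 13.2, 17.1 and 13.7 CPM in Claudin-2TG, highest in AOM-DSS WT. It had 0.84 (SE 0.15, adjusted p 0.0160) against Control WT, lost without any Control WT library (up to 0.0729), and -0.67 (SE 0.17, 0.0455) in Claudin-2TG against AOM-DSS WT, kept only without library 4 (up to 0.165).

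*Nmb* had 1.38 (adjusted p 0.0325), kept only without library 4 (up to 0.126), in AOM-DSS WT against Control WT. *Nmu* was called lower there (0.0273), at 0.762, 0.0884 and 0.469 CPM against 1.81 to 4.13 CPM in Control WT, and kept the call only without library 4 or 5 (up to 0.0954). No fold is given for *Nmu* in this comparison, since AOM-DSS WT library 5 was below the floor of 3 counts. In Claudin-2TG against Control WT the neuropeptide genes *Gal* (0.00222, with no fold given, since Claudin-2TG library 9 was at the floor of 3 counts), *Nmu* (-2.12, 0.0114) and *Penk* (-1.57, 0.00676) kept their calls without each library, and *Vip* (-2.43, 0.0464) kept it only without library 7 (0.00224, otherwise up to 0.154). *Penk* also had -1.18 (0.0379) in Claudin-2TG against AOM-DSS WT, kept only without library 4 (up to 0.152). The 4 calls in Claudin-2TG against Control WT were thus all of peptides that enteric neurons also make, and the part of neurons in them was not tested.

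*Ppy*, which encodes pancreatic polypeptide, a relative of peptide YY, was in the list of pancreas and upper gut markers. *Ppy* stood at 9.01, 8.59 and 6.69 CPM in Control WT, at 34.7, 14.8 and 17.5 CPM in AOM-DSS WT and at 19.7, 24.3 and 27.8 CPM in Claudin-2TG. All libraries of both AOM/DSS groups were above all controls. Its log2 fold change was 1.49 (SE 0.33, adjusted p 0.0268) in AOM-DSS WT against Control WT, lost without any Control WT library (up to 0.102), 0.07 (SE 0.32, 0.938) in Claudin-2TG against AOM-DSS WT, and 1.57 (SE 0.17, 0.00104) in Claudin-2TG against Control WT, kept without each library (0.00147 to 0.00853). The most abundant gene of the list was the elastase gene *Cela1*, with 89.1% of the sum, at 558, 664 and 415 CPM, then 629, 496 and 431 CPM, then 758, 716 and 813 CPM. *Cela1* was called in no comparison, with adjusted p of 0.898, 0.0772 and 0.0747, and its source was not tested. *Prss1*, *Ins1*, *Ins2*, *Apoa4* and *Lct* were at or below 3 counts in every library. The list of 14 had 6 tested, of which 2 were called higher in each comparison, with medians of 0.05, 0.30 and 0.88. Beside *Ppy* these were *Slc10a2* in both comparisons with Control WT and *Fabp2* and *Fabp6* in Claudin-2TG against AOM-DSS WT, each lost without at least 3 of the 6 libraries.

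Markers of other cells and tissue properties were measured beside the enteroendocrine genes, with counts of called genes, and median log2 fold changes, in AOM-DSS WT against Control WT, Claudin-2TG against AOM-DSS WT, and Claudin-2TG against Control WT in that order. Over all genes tested 15.0%, 9.54% and 10.0% were called in these comparisons. The 15 colonocyte markers gave 3 lower (median -0.52), 3 higher (0.63), and 0 by edgeR (0.23, with 2 at an unadjusted p under 0.05 and 1 by DESeq2). Their sum was 15355, 13196 and 11379 CPM in Control WT, 13459, 8429 and 6281 CPM in AOM-DSS WT and 14057, 15823 and 18129 CPM in Claudin-2TG, with *Muc3* the most abundant and none at or below 3 counts everywhere. As with *Insl5*, AOM-DSS WT libraries 5 and 6 held the smallest colonocyte sums. The leukocyte markers gave 10 of 16 higher (1.67), 9 of 15 lower (-1.94) and 1 of 14 higher (-0.22). Their sum was 359, 283 and 291 CPM, then 633, 1020 and 974 CPM, then 460, 426 and 396 CPM, with *Ly6g* the most abundant at 50.9% and none at or below 3 counts everywhere. *Ly6g* alone stood at 207, 197 and 137 CPM, then 298, 327 and 316 CPM, then 302, 350 and 331 CPM, so that it made up most of the Claudin-2TG sums and was the 1 marker called in Claudin-2TG against Control WT. The part of either list in the changes of *Insl5* and *Gcg* was not tested.

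The 20 general epithelial genes gave 0 called by edgeR (median -0.02, with 6 at an unadjusted p under 0.05 and 3 by DESeq2), 1 higher (0.11) and 2 higher (0.10). The 15 goblet cell markers, of the same secretory lineage, gave 1 higher and 1 lower (-0.19), 1 higher (0.02), and 0 by edgeR (-0.02, with 4 at an unadjusted p under 0.05 and 1 by DESeq2). The tuft cell markers had 12 tested, with 4 lower (-0.58), 1 higher and 2 lower (0.11), and 3 lower (-0.61). The 10 cell cycle markers gave 2 lower (-0.57), 0 by edgeR (0.19, with 2 at an unadjusted p under 0.05 and 1 by DESeq2) and 3 lower (-0.33). Markers of position along the colon had 13, 12 and 13 tested, with 1 higher and 2 lower (-0.17), 1 higher (0.29) and 3 higher (0.12). The mast cell markers gave 4 of 7 higher and 1 lower (2.55), 1 of 7 higher and 2 lower (-2.09), and 1 of 5 higher (0.22). The enteric glia markers gave 0 of 6 by edgeR (-0.72, with 2 at an unadjusted p under 0.05 and 0 by DESeq2), 0 of 3 (-0.34, with 0 and 0) and 5 of 6 lower (-1.88), of which *Gfap* alone kept its call without each library, with 3 of the list called by DESeq2. The gene not called there, *Erbb3* (0.23), held 98.3% of the glia sum, which was 275, 398 and 350 CPM in Control WT, 289, 371 and 224 CPM in AOM-DSS WT and 515, 343 and 312 CPM in Claudin-2TG, so the sum was not lower in Claudin-2TG. The 4 sex-linked genes tested gave 0 by edgeR in each comparison, with 0 at an unadjusted p under 0.05 and 0 by DESeq2 (medians 0.85, 0.02 and 0.80).

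The promoters of the 4 called genes are printed because these genes moved in different directions, *Gcg* and *Insl5* up in Claudin-2TG against AOM-DSS WT, *Insl5* down and *Cck* up in AOM-DSS WT against Control WT, and *Sst* down in Claudin-2TG against Control WT. RefSeq promoters (build GRCm38.p6) matched 10 of 10 genes, and for *Insl5*, *Tph1* and *Pyy*, each with 2 starts, the most upstream start was used, which for *Insl5* lies 429 bases upstream of the gene model of the count table. The windows are the 250 bases before the start, on the minus strand for all 4, at chr2:62483654-62483903 for *Gcg*, chr4:103027272-103027521 for *Insl5*, chr16:23890845-23891094 for *Sst* and chr9:121495695-121495944 for *Cck*. Capitals mark matches, on either strand, to the E-boxes CAGCTG and CAGATG, the cAMP response element TGACGTCA and its short form TGACG, which TGACGTCA contains, and the TATA box TATAAA.
Gcg: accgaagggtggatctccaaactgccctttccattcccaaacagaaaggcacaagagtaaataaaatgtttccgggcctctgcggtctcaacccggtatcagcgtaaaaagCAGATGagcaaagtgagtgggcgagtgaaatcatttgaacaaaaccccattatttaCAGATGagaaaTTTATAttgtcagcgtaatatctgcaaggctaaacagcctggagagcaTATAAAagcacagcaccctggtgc
Insl5: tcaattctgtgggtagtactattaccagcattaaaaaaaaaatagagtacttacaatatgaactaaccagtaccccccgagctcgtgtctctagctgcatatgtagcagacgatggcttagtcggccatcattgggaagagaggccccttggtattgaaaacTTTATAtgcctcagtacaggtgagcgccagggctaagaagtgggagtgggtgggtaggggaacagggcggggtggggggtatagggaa
Sst: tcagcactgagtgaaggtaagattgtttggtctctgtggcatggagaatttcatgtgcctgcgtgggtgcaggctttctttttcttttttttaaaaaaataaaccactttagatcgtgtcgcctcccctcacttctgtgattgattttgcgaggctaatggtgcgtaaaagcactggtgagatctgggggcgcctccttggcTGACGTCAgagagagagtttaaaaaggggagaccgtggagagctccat
Cck: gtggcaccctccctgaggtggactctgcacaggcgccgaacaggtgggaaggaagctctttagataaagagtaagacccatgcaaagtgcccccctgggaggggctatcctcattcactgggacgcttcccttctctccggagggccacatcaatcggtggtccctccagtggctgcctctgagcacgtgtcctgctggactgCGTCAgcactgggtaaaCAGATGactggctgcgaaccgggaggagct

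TATAAA was found in the windows of *Gcg*, starting 24 bases before the start at its nearest, and of *Insl5*, at 88 bases, 2 of the 10 genes, and in 13.0% of all 27025 promoters. The single *Insl5* match was on the opposite strand, as TTTATA, and lay before a start upstream of the gene model of the count table. CAGATG was found in *Gcg*, at 83 bases, and *Cck*, at 30 bases, 2 of 10 against 14.5% of all promoters. TGACGTCA was found in *Sst*, at 48 bases, and in *Chgb*, 2 of 10 against 1.60% of all. Its short form TGACG was found in 6 of 10 genes, *Chga*, *Chgb*, *Tph1*, *Sst*, *Cck* and *Nts*, against 17.8% of all. CAGCTG was found in *Chga* and *Nts*, 2 of 10 against 12.7%, and the general E-box CANNTG, not capitalised, in 9 of 10 against 66.1%. A match describes letters in these windows and is not evidence of binding.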

How the data were processed

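RNA sequencing counts per gene and lane were deposited by the authors as raw counts, from reads mapped to GRCm38 and counted with featureCounts of Subread. The study's methods name TopHat2 for mapping and its processing notes HISAT2, with no versions. All 18 of 18 count columns were used, with the 2 lanes of each library summed. Symbols came from GENCODE M21 by gene ID, for 47224 of 47729 genes, 40731 with the same coordinates. Library totals and the level of 3 counts per library are given with the results. Each comparison of 3 against 3 libraries was fitted across all genes in edgeR 4.0.16 (R 4.3.3) with TMM, filterByExpr (minimum count 10, minimum total 15) and a robust quasi-likelihood test, two-sided, with Benjamini-Hochberg adjustment over all genes tested and calls at an adjusted p under 0.05. The code was tested on simulated data.

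The alternatives, 1 at a time, were DESeq2 1.42.0, library size only, upper quartile, scaling by the general epithelial genes, no filter, at least 10 counts in every library, all 9 libraries in 1 fit, lane 1 only, lane 2 only and leaving out each library. Ratios to *Chga* were compared by exact permutation test. Tables and figures were made in Python 3.11.15 (scipy 1.17.1, pandas 2.3.3, matplotlib 3.10.9, numpy 2.4.6). Named were all 10 members, of each list the called genes (up to the 5 with the smallest p in each direction) and the 2 most abundant, the 6 genes most like *Chga*, *Gcg*, *Tph1* and *Sst* by Pearson r of log2 CPM (prior count 2) among genes whose mean CPM reached 1, and 5 ratios to *Chga*. In the lists of other cells and of tissue properties fewer genes, called or abundant, are named than this rule allows. The members and lists were chosen with earlier results of these data known. Promoters came from RefSeq. No protein sequence was at hand, and none was used here.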

Additional observations from a re-analysis of the deposited data

How the results depend on the processing

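The 3 counts of called enteroendocrine genes were 2 for AOM-DSS WT against Control WT, 2 for Claudin-2TG against AOM-DSS WT and 1 for Claudin-2TG against Control WT. In AOM-DSS WT against Control WT the count became 1 with at least 10 counts in every library, with lane 1 only and with lane 2 only. It became 3 with DESeq2, with scaling by epithelial genes, with no filter and with all 9 libraries in the fit, and 0 to 3 when 1 library was left out. In Claudin-2TG against AOM-DSS WT it became 1 with no filter and 0 to 2 when 1 library was left out. In Claudin-2TG against Control WT it became 2 with DESeq2, 4 with no filter and 2 with lane 2 only, and 1 to 3 when 1 library was left out. The lane fits held fewer counts and the strict filter fewer genes, and otherwise the cause was not tested. *Cck* gave no value with at least 10 counts in every library and with lane 2 only, nor with lane 1 only in Claudin-2TG against Control WT.

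Of the log2 fold changes, reversed values were seen in AOM-DSS WT against Control WT for *Chgb* (-0.08 with scaling by epithelial genes, -0.18 to 0.30 when 1 library was left out), *Pyy* (-0.33 to 0.11 when 1 library was left out) and *Neurod1* (-0.03 with lane 2 only). They were also seen, when 1 library was left out, for *Tph1* in Claudin-2TG against AOM-DSS WT (-0.16 to 0.55) and for *Insl5* in Claudin-2TG against Control WT (-0.31 to 0.09). None of these was called, and the cause was not tested. In the alternatives with all libraries, 70 of 79, 78 of 79 and 73 of 78 values kept their direction and side of the threshold in the 3 comparisons, in the order above. With 1 library left out 39 of 54, 42 of 54 and 51 of 54 did. Of the called list genes that the naming rule picks, 40 of 69, 20 of 38 and 21 of 57 kept their call in every alternative with all libraries, 5, 0 and 28 kept it without each library in turn, and none reversed.

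Over all genes, with 1 library left out, the number called went from 135 (without Control WT library 2) to 4080 (without AOM-DSS WT library 4) in AOM-DSS WT against Control WT, against 2310 with all libraries. In Claudin-2TG against AOM-DSS WT it went from 58 (without Claudin-2TG library 8) to 2894 (without AOM-DSS WT library 4), against 1421, and in Claudin-2TG against Control WT from 525 (without Control WT library 3) to 1383, against 1501. With all libraries kept, it was 1803 to 3249, 908 to 2183 and 445 to 2567 over the 9 alternatives in the 3 comparisons, the ends of the last being the fit of all 9 libraries and the fit with no filter. Scaling by epithelial genes moved the median log2 fold change of all genes to -0.12 and -0.21 in the comparisons of Claudin-2TG with AOM-DSS WT and with Control WT, and library size only moved the last to -0.11.

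With 3 libraries in each group, 1 control of the other sex by RNA and 1 AOM-DSS WT library apart from its group, a missed call does not show that a level did not differ. At 14142711 to 22262546 counts per library, *Nts* was at or below 3 counts in 6 of 9 libraries, and *Cck* had 6 to 33 counts, so changes in either were not measurable with precision. Whole colon RNA does not say which cells a count came from.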
